A study of Mus musculus with 19 samples.

Results

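The ganglion cell specification factors described here are 10 genes for DNA-binding proteins: the POU-homeodomain genes Pou4f1, Pou4f2 and Pou4f3 (also called Brn3a, Brn3b and Brn3c), the LIM-homeodomain genes Isl1 and Isl2, the helix-loop-helix genes Ebf1, Ebf2 and Ebf3, and the distal-less homeobox genes Dlx1 and Dlx2. They were chosen by symbol, 10 of the 47069 genes listed in each count file, and all 10 were among the 15941 genes with enough reads to test. The RNA-seq libraries came from mouse retina at E16.5, 3 for each of 2 populations of GFP+ sorted cells. Libraries labelled Sert came from Slc6a4-Cre; Sun1-GFP retinas and stand for ipsilaterally projecting ganglion cells (iRGCs). Libraries labelled Brn3b came from Pou4f2-Cre; Sun1-GFP retinas and stand for contralaterally projecting ganglion cells (cRGCs). All mice were of the strain C57/DBA F1, males and females were pooled, the labels give the genotype as WT, and no treatment was given for either group. The Sun1-GFP reporter sits at Rosa26 behind a stop that Cre removes, so that a cell which has once made Cre, and its descendants, stays labelled. Before the cRGC sort the ventrotemporal retina, where iRGCs lie, was cut away, so that retinal region and Cre line cannot be told apart in this comparison. The Pou4f2-Cre allele was made by targeting the Pou4f2 gene itself, which is a member of the group described. Between 28193178 and 30874653 reads fell on genes in the iRGC libraries, and between 28274471 and 33638083 in the cRGC libraries.

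Retinal ganglion cells are the neurons whose axons form the optic nerve. They arise from progenitors that pass through an Atoh7-expressing state, after which Pou4f2 and Isl1 act together to switch on the genes of the ganglion cell, among them Pou4f1, Eomes and genes of the axon. Isl2 is known for keeping contralateral ganglion cells from taking up the ipsilateral program that Zic2 directs, Ebf factors act in ganglion cell differentiation, and Dlx1 and Dlx2 serve both ganglion cells and the amacrine and horizontal interneurons.

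The labels of the populations were checked on 2 genes. Slc6a4, the serotonin transporter gene whose regulatory region drives Cre in the iRGC line, stood at 2.06, 33.4 and 116 CPM (reads scaled to the depth of the library by the trimmed mean of M-values) in iRGC replicates 1, 2 and 3 and at 48.1, 35.4 and 30.5 CPM in cRGC replicates 1, 2 and 3. The driver gene thus did not separate the populations (0.41 ± 0.93 on the log2 scale, SE, in the quasi-likelihood test of edgeR, where adjusted p = 0.768), and iRGC replicate 1 held the least of it of the 6 libraries. Zic2, the factor of the ipsilateral program, stood at 133, 173 and 157 CPM in iRGCs and at 57.0, 60.2 and 65.7 CPM in cRGCs, without overlap (log2 fold change 1.34 ± 0.13, SE; edgeR adjusted p = 2.09e-04). By the driver gene only iRGC replicate 3 stood above the cRGC libraries, iRGC replicate 2 lay inside their range and iRGC replicate 1 below it. By Zic2 each iRGC library went with its label. The library iRGC replicate 1 also stood with the iRGCs in summed progenitor markers (9913 CPM, cRGCs at most 2219) and ganglion cell markers (2573 CPM, cRGCs at least 12760). Whether iRGC replicate 1 was mislabelled or held other cells was not tested. The changes of the factors, the lists of upstream, downstream, cofactor, progenitor and ganglion cell genes, and the ratios to ganglion cell markers are therefore also given without it.

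Of the 10 factors, 7 were lower in iRGCs at an adjusted p under 0.1 (Pou4f1, Pou4f2, Pou4f3, Isl1, Isl2, Ebf1 and Ebf3), 2 were higher (Dlx1 and Dlx2), and Ebf2 did not pass. Across all tested genes 46.4% passed this threshold, 23.1% lower and 23.3% higher in iRGCs. With an absolute log2 fold change above 1 added, 8 of the 10 factors passed, against 23.1% of tested genes. In 8 of the 10 the 3 iRGC libraries lay entirely on 1 side of the 3 cRGC libraries, which held for 55.3% of tested genes. The median log2 fold change was -1.81 over the factors and -0.00 over all tested genes, whose quartiles were -0.62 and 0.59. In these bulk samples fewer cells that express a gene and less of its RNA per cell cannot be told apart. Without iRGC replicate 1, the 7 lower factors and Dlx2 passed again and Dlx1 did not, and the median over the factors was -1.53. The log2 fold changes were then -2.13 for Pou4f1, -0.97 for Pou4f2, -1.55 for Pou4f3, -1.83 for Isl1, -2.07 for Isl2, -1.70 for Ebf1, -0.62 for Ebf2, -1.52 for Ebf3, 0.82 for Dlx1 and 1.34 for Dlx2.

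**Figure D1:**
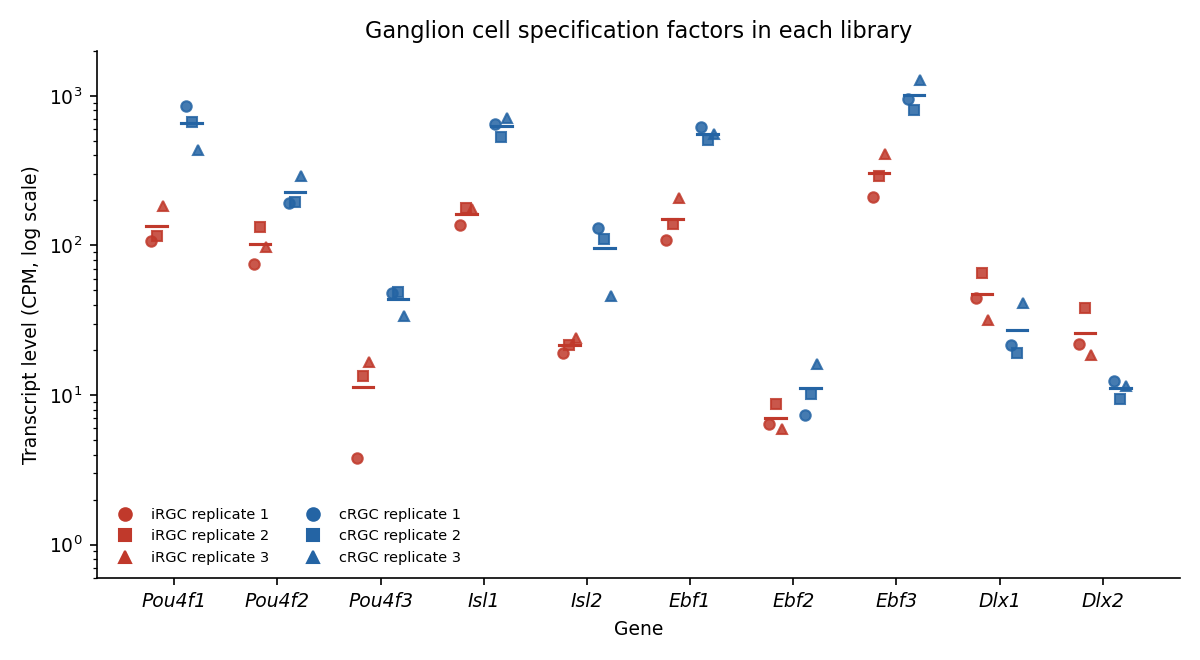
Transcript level in CPM (log axis) of the 10 factors in each library, with red for iRGCs, blue for cRGCs, a symbol for each replicate and a bar at the group mean. For Ebf2 and Dlx1 the groups overlap; for Pou4f1 the iRGC libraries end at 182 and the cRGC libraries begin at 431.

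The 3 Pou4f genes, which encode the POU-homeodomain regulators of ganglion cell differentiation, survival and subtype, all fell in iRGCs. Pou4f1 (chr14:104461676-104467999, minus strand, GRCm38) measured 107, 116 and 182 CPM in iRGC replicates 1 to 3 and 861, 672 and 431 CPM in cRGC replicates 1 to 3. The highest iRGC library was well below the lowest cRGC library, although the cRGC libraries themselves were spread widely. It was 4.85-fold lower in iRGCs (log2 fold change -2.28 ± 0.28, SE, 95% interval -2.91 to -1.64; adjusted p = 4.00e-04, edgeR), the largest change in either direction among the factors in this fit. Isl2 came close, at -2.15 ± 0.34 (SE). With only iRGC replicate 3 kept of the iRGCs the order turned, at -1.84 for Pou4f1 and -1.99 for Isl2. In the main fit only 2.26% of tested genes had a lower log2 fold change than Pou4f1. Pou4f2 (chr8:78433010-78436645, minus strand), the family member that acts earliest in the ganglion cell program, measured 74.7, 133 and 98.3 CPM in iRGCs and 191, 196 and 293 CPM in cRGCs. Again no iRGC library reached a cRGC library, but the gap was narrower, and cRGC replicate 3 was the highest. Its change was 2.22-fold (log2 fold change -1.15 ± 0.23, SE, 95% interval -1.68 to -0.62; adjusted p = 0.00424, edgeR), the smallest among the 7 factors that fell, and 13.6% of tested genes had a lower value. The cRGC line carries Cre in the targeted Pou4f2 gene, and the part of that allele in the Pou4f2 level was not tested. Pou4f3 (chr18:42394539-42397249, plus strand), the least abundant of the family, had 118, 436 and 524 reads in the iRGC libraries and 1256, 1424 and 1053 in the cRGC libraries, or 11.3 ± 6.65 and 43.8 ± 8.52 CPM (SD, n = 3). All 3 iRGC libraries were below the cRGC libraries, iRGC replicate 1 furthest, and the drop of -1.96 ± 0.45 on the log2 scale (SE; edgeR adjusted p = 0.00795) became -1.55 without that library.

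Per kilobase of exon, the scale on which genes can be compared with each other, the balance of Pou4f1 and Pou4f2 varied between libraries. In cRGC replicates 1 and 2, Pou4f1 made up 69.8% and 63.7% of the summed Pou4f level and Pou4f2 22.6% and 27.2%. In cRGC replicate 3 they were level, at 46.6% and 46.2%. Across the iRGC libraries Pou4f1 held 48.0%, 34.5% and 50.9%, and Pou4f2 held 48.7%, 57.7% and 40.1%. The balance in cRGC replicate 3 thus lay inside the iRGC range, and the groups overlapped. The ratio of Pou4f1 to Pou4f2 in CPM was 1.43, 0.873 and 1.85 in iRGCs and 4.50, 3.42 and 1.47 in cRGCs (two-sided exact permutation p = 0.2, 0.422 after adjustment over 19 ratios). With 3 libraries against 3 such a test cannot fall below 0.1. These shares and this ratio contain Pou4f2, and the part of the targeted Pou4f2 allele in them was not tested.

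**Figure D2:**
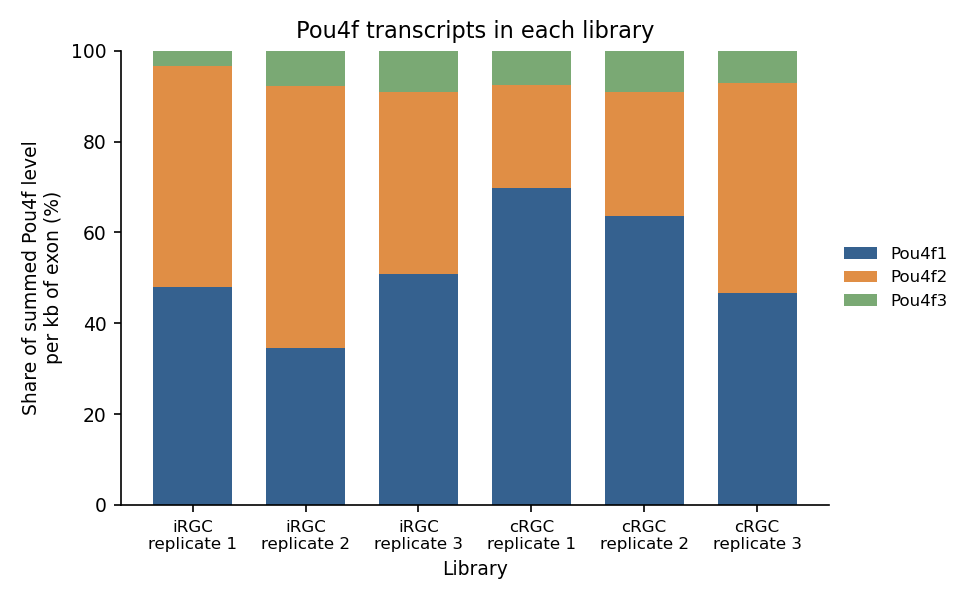
Share (%) of the summed Pou4f level per kilobase of exon that fell to Pou4f1, Pou4f2 and Pou4f3 in each of the 6 libraries. Pou4f1 makes up 69.8% and 63.7% in cRGC replicates 1 and 2, and between 34.5% and 50.9% in the other libraries.

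The LIM-homeodomain pair also fell. Isl1 (chr13:116298281-116309689, minus strand), the partner of Pou4f2 in ganglion cell differentiation, measured 137, 178 and 174 CPM in iRGCs and 644, 533 and 708 CPM in cRGCs. The groups were far apart, and its SE was the smallest of the 10 factors. It was 3.85-fold lower in iRGCs (log2 fold change -1.94 ± 0.15, SE, adjusted p = 2.05e-04, edgeR) and stayed from -2.04 to -1.83 without any given library. Isl2 (chr9:55538672-55546180, plus strand), the factor that opposes the ipsilateral program, measured 19.1, 21.6 and 23.9 CPM in iRGCs and 130, 111 and 45.7 CPM in cRGCs. The iRGC libraries were close together, and cRGC replicate 3 was well below the other two. The change was 4.45-fold (log2 fold change -2.15 ± 0.34, SE, adjusted p = 0.00117, edgeR), or -2.48 without cRGC replicate 3. Isl1 relative to Pou4f2, its partner, was 1.84, 1.33 and 1.77 in iRGCs and 3.37, 2.71 and 2.42 in cRGCs, a ratio of CPM that did not overlap between the groups (exact permutation p = 0.1, the smallest possible, and 0.38 after adjustment over 19 ratios). This ratio has Pou4f2 as its denominator and so shares the limit of the targeted allele.

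The bases just upstream of the start sites are shown for 4 factors whose level moved, since Pou4f1, Isl1 and Isl2 fell together while Dlx2 rose. RefSeq windows (GRCm38.p6) were found for 8 of the 10 factors, and the 250 bases before the start were read 5′ to 3′ on the gene's strand. Capitals mark 4 sets of letters: CAGCTG (an E-box, the kind of site that basic helix-loop-helix factors bind), CCAAT (a general promoter element), TGACGTCA (the cyclic AMP response element) and TAAGTG (a sequence that NK-type homeodomains bind). Each was searched on both strands, so that a match can stand in its complement, as CCAAT does in Dlx2, and no matches overlap. Pou4f1 lies at chr14:104468000-104468249 (minus strand), Isl1 at chr13:116309689-116309938 (minus strand), Isl2 at chr9:55540899-55541148 (plus strand) and Dlx2 at chr2:71546755-71547004 (minus strand).
Pou4f1: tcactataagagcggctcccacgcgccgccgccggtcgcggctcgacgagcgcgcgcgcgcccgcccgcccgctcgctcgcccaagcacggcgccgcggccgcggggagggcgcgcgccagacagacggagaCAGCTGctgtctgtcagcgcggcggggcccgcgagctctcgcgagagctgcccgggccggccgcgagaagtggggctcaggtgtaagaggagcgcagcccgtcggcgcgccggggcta
Isl1: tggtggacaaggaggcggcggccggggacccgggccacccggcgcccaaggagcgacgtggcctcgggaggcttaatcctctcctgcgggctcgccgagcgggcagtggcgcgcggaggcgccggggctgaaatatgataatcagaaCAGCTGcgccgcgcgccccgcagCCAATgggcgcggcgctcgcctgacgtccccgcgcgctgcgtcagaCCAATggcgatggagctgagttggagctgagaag
Isl2: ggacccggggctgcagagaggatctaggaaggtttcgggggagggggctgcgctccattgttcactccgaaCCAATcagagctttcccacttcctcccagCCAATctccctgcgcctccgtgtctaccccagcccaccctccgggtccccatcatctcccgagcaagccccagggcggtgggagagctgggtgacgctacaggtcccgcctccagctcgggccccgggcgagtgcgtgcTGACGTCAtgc
Dlx2: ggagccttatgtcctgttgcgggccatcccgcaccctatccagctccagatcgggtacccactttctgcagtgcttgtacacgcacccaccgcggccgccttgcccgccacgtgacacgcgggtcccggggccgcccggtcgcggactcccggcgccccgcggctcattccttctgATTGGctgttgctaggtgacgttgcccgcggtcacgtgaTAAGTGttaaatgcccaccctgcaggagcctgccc
CAGCTG was in the windows of Pou4f1 and Isl1 and in 13.0% of all 32851 windows. CCAAT was in those of Isl1, Isl2 and Dlx2 and in 33.8% of all windows. TGACGTCA was in the Isl2 window and in 1.55% of all, and TAAGTG was in those of Dlx2 and Ebf1 (in 1 of 2 Ebf1 windows) and in 7.92% of all. No window of the factors held the E-box CATATG (3.46% of all windows), the homeodomain core TAATTA (4.84%), the TATAAA box (12.4%) or the Ebf palindrome TCCCNNGGGA (0.779%). The E-box CAGCTG, the CCAAT box and the cyclic AMP element were picked after these sequences had been read, so their presence is a description. The Pou4f1 window held 78.0% G and C, more than 97.9% of all windows, against 71.2% for Isl1, 66.8% for Isl2, 66.4% for Dlx2 and a median of 52.4%. Of the windows not printed, Ebf3 held more than Pou4f1, at 80%, Pou4f2 held 70.8% and Dlx1 68%. The 2 Ebf1 windows, at 40% and 52%, lay below the median.

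**Figure D3:**
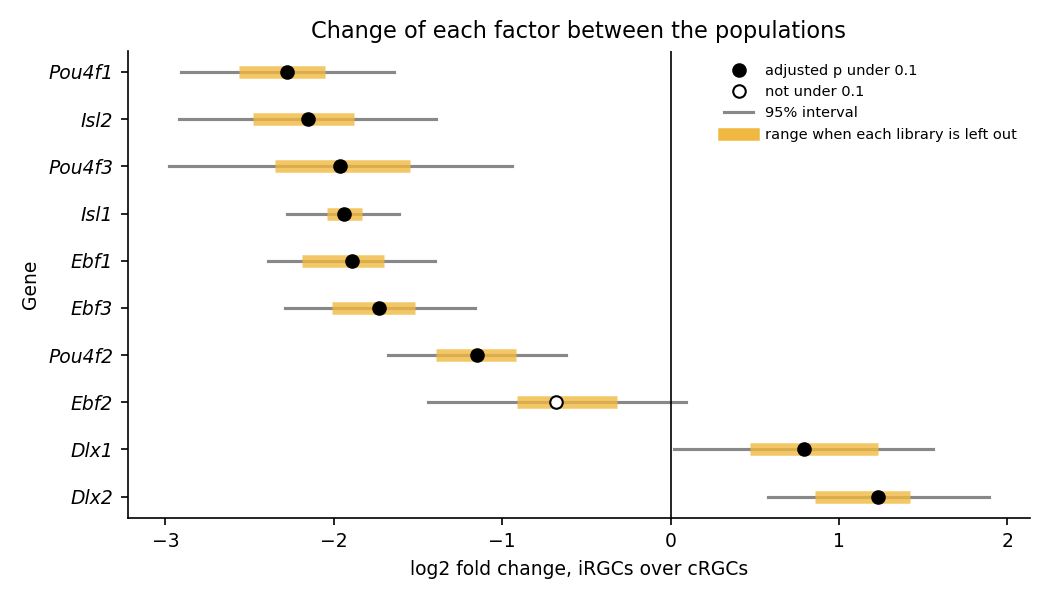
Log2 fold change of each factor, iRGCs over cRGCs, from the edgeR fit, with its 95% interval in grey and the range over 6 fits that each leave out 1 library in yellow. Filled points passed an adjusted p of 0.1. Isl1 has the narrowest interval, and the Dlx1 interval begins at 0.02.

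Among the Ebf genes, which encode helix-loop-helix factors of neuronal differentiation, the 2 abundant members fell and the scarce member did not pass. Ebf3 (chr7:137193673-137314445, minus strand) had the highest count of the 10, at 212, 292 and 410 CPM in iRGCs and 956, 800 and 1272 CPM in cRGCs. The groups were well separated, and Ebf3 stood at -1.73 ± 0.25 in iRGCs on the log2 scale (SE; edgeR adjusted p = 7.99e-04). A share of 3.85% of its exonic bases overlaps the antisense gene Gm45278. Ebf1 (chr11:44617317-45008091, plus strand) measured 108, 138 and 206 CPM in iRGCs and 614, 504 and 558 CPM in cRGCs. No library of the groups overlapped, and it fell 3.71-fold (log2 fold change -1.89 ± 0.22, SE, adjusted p = 3.07e-04, edgeR). Ebf2 (chr14:67233292-67430918, plus strand) measured 6.43, 8.75 and 5.90 CPM in iRGCs and 7.38, 10.2 and 16.1 CPM in cRGCs. The groups overlapped, and the log2 fold change of -0.68 ± 0.34 (SE, 95% interval -1.44 to 0.09) had an adjusted p of 0.149 in edgeR. Without cRGC replicate 1 Ebf2 did pass, at -0.91 and an adjusted p of 0.0798 (edgeR). Without cRGC replicate 3 its log2 fold change was -0.32 (adjusted p = 0.575, edgeR). Over all alternatives its adjusted p ran from 0.0798 to 0.575. Within the Ebf family, Ebf1 and Ebf3 kept like proportions, Ebf3 making up 66.6% ± 0.885 of the level per kilobase in iRGCs and 64.5% ± 4.59 in cRGCs (SD, n = 3). Ebf2 made up 2.20% ± 0.799 and 0.955% ± 0.284 (SD, n = 3), without overlap, though iRGC replicate 3 (1.28%) lay close to cRGC replicate 3 (1.18%). The CPM ratio of Ebf3 to Ebf2 did not overlap between the groups (exact permutation p = 0.1, 0.38 after adjustment over 19 ratios). That of Ebf1 to Ebf2 did overlap (exact permutation p = 0.2).

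The Dlx genes, neighbours on chromosome 2 that encode homeodomain factors of forebrain and retinal neurons, were the only factors of the 10 with a positive fold change. Dlx2 (chr2:71543408-71546754, minus strand) measured 21.8, 38.1 and 18.4 CPM in iRGCs and 12.5, 9.35 and 11.5 CPM in cRGCs. The groups did not overlap, and iRGC replicate 2 was the highest. Dlx2 was 2.35-fold higher in iRGCs (log2 fold change 1.23 ± 0.29, SE, 95% interval 0.58 to 1.89; adjusted p = 0.00857, edgeR). Dlx1 (chr2:71528113-71533981, plus strand) measured 44.6, 65.6 and 31.7 CPM in iRGCs and 21.6, 19.1 and 41.5 CPM in cRGCs. The groups overlapped, because cRGC replicate 3 exceeded iRGC replicate 3. Its log2 fold change of 0.79 ± 0.34 (SE, 95% interval 0.02 to 1.56) passed narrowly at an adjusted p of 0.0998 (edgeR), and that call was lost without iRGC replicate 1 (0.82, adjusted p = 0.146), iRGC replicate 2 (0.47, 0.337), cRGC replicate 1 (0.64, 0.271) or cRGC replicate 2 (0.60, 0.261). The antisense gene Dlx1as overlaps 6.21% of the exonic bases of Dlx1 and was itself at 0.402 CPM or less in every library. iRGC replicate 2, which held the most Dlx1 and Dlx2, also held the most mural and erythroid RNA, with summed markers of 157 CPM (mural) and 92.7 CPM (erythroid) against at most 22.2 and 15.2 CPM in the other iRGC libraries. Without it Dlx2 remained higher, at 0.86 (adjusted p = 0.0244, edgeR).

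In level per kilobase of exon, the order of the factors in cRGCs was Isl1 (159 ± 22.5 CPM per kb, SD, n = 3), Pou4f1 (140 ± 46.1), Ebf3 (109 ± 26.1), Pou4f2 (70.8 ± 17.9), Ebf1 (57.3 ± 5.63) and Isl2 (43.7 ± 20.3), then Pou4f3 (18.3 ± 3.55), Dlx1 (5.08 ± 2.28), Dlx2 (3.89 ± 0.558) and Ebf2 (1.62 ± 0.645). Neighbours from Isl1 down to Isl2 overlapped in their libraries, whereas Isl2 and Pou4f3, Pou4f3 and Dlx1, and Dlx2 and Ebf2 did not. The iRGC order began with Isl1 (41.2 ± 5.69), Ebf3 (33.0 ± 10.8), Pou4f2 (31.9 ± 9.22) and Pou4f1 (28.9 ± 8.67), which overlapped as neighbours, and went on with Ebf1 (15.4 ± 5.12), Isl2 (9.83 ± 1.09), Dlx2 (9.15 ± 3.69), Dlx1 (8.77 ± 3.18), Pou4f3 (4.70 ± 2.77) and Ebf2 (1.01 ± 0.219). By group mean Isl1 led in both populations and exceeded 99.2% of tested genes per kilobase in cRGCs and 94.5% in iRGCs. Pou4f1 exceeded it in cRGC replicate 1 (184 against 163 CPM per kb) and cRGC replicate 2 (144 against 135). Ebf3 exceeded it in iRGC replicate 3 (44.5 against 44). Pou4f1 stood above 99.0% of tested genes in cRGCs and 90.2% in iRGCs. Ebf2, the lowest in both, stood above 23.0% in iRGCs, and Dlx2 above 44.5% in cRGCs and 64.2% in iRGCs.

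The replicates of a population did not move as a block. iRGC replicate 1 was the lowest of its group in the same 7 factors that were lower in iRGCs, and it also held the least summed ganglion cell markers and the most progenitor markers of the iRGC libraries. cRGC replicate 3 was the lowest of its group in 3 factors (Pou4f1, Pou4f3 and Isl2) and the highest in 5 (Pou4f2, Isl1, Ebf2, Ebf3 and Dlx1). Of the other listed genes, 4 chosen after their values were seen also set that library apart, namely Irx3 (42.2, 45.8 and 108 CPM in cRGC replicates 1 to 3), Lmo2 (51.9, 61.1 and 133), Onecut2 (178, 174 and 320) and the surface glycoprotein gene Thy1 (46.5, 39.1 and 3.19). Without cRGC replicate 3, Pou4f1 stood at -2.50, Isl2 at -2.48, Pou4f2 at -0.92 and Dlx1 at 1.23 on the log2 scale, and all 4 passed (adjusted p at most 0.0197, edgeR).

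The RNA of most other cell types listed moved with the comparison. The counts below stand beside 23.3% of all tested genes higher and 23.1% lower in iRGCs. All 14 progenitor markers (Ccnd1, Fgf15, Top2a and Mki67 the most abundant) were higher in iRGCs, with summed levels of 9913, 8585 and 7486 CPM against 860, 2219 and 1415 CPM in cRGCs. Of 10 ganglion cell markers 9 were lower and Thy1 did not pass, with sums of 2573, 3687 and 5550 CPM against 13690, 12760 and 15810 CPM and Tubb3 the most abundant. The 6 tested of 7 photoreceptor precursor markers were all higher (sums of 1068, 830 and 840 CPM against 154, 274 and 202 CPM), Neurod1 leading and Rcvrn at or near 0. Of 11 amacrine markers tested and reported 8 were higher and 1 was lower, with Chat at or near 0, and no summed level is given because that list is reported only in part. Horizontal markers gave 2 higher of 7 tested, near the share of all tested genes. Onecut2 was the most abundant, and the sums were 427, 411 and 439 CPM against 320, 338 and 438 CPM. Endothelial markers were higher in all 5 tested of 7, with sums of 447, 619 and 431 CPM against 86.4, 107 and 70.4 CPM. Most of that sum was Kdr, while Cdh5 was at 0 in the 3 cRGC libraries and at 15.2, 81.3 and 0.158 CPM in iRGCs. In iRGC replicate 3 Kdr stood at 418 CPM and Cldn5 at 11.8 CPM, with Pecam1, Cdh5, Cd34, Tie1 and Esam at 0.505 CPM or less. The sum is therefore not a measure of endothelial RNA. Mural, microglia and erythroid markers gave 2 of 3, 3 of 5 and 4 of 4 tested genes higher, with Rgs5, Csf1r and Hbb-bs the most abundant. The microglia sums were 13.0, 19.9 and 15.3 CPM against 0.654, 4.18 and 1.36 CPM, the mural sums 19.2, 157 and 22.2 CPM against at most 4.45 CPM, and the erythroid sums 12.2, 92.7 and 15.2 CPM against at most 5.11 CPM. These scarce lists rest on few libraries. Without iRGC replicate 2 the higher genes were 3 endothelial, 1 microglia and 1 erythroid, and microglia markers also gave 1 without iRGC replicate 3 or cRGC replicate 3. Horizontal markers gave 2 lower genes without iRGC replicate 2 or cRGC replicate 1. The median log2 fold change was 2.51 for progenitor and -1.94 for ganglion cell markers, or 2.41 and -1.69 without iRGC replicate 1, which left the counts of both lists as they were. The part of this makeup in the levels of the factors was not tested.

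**Figure D4:**
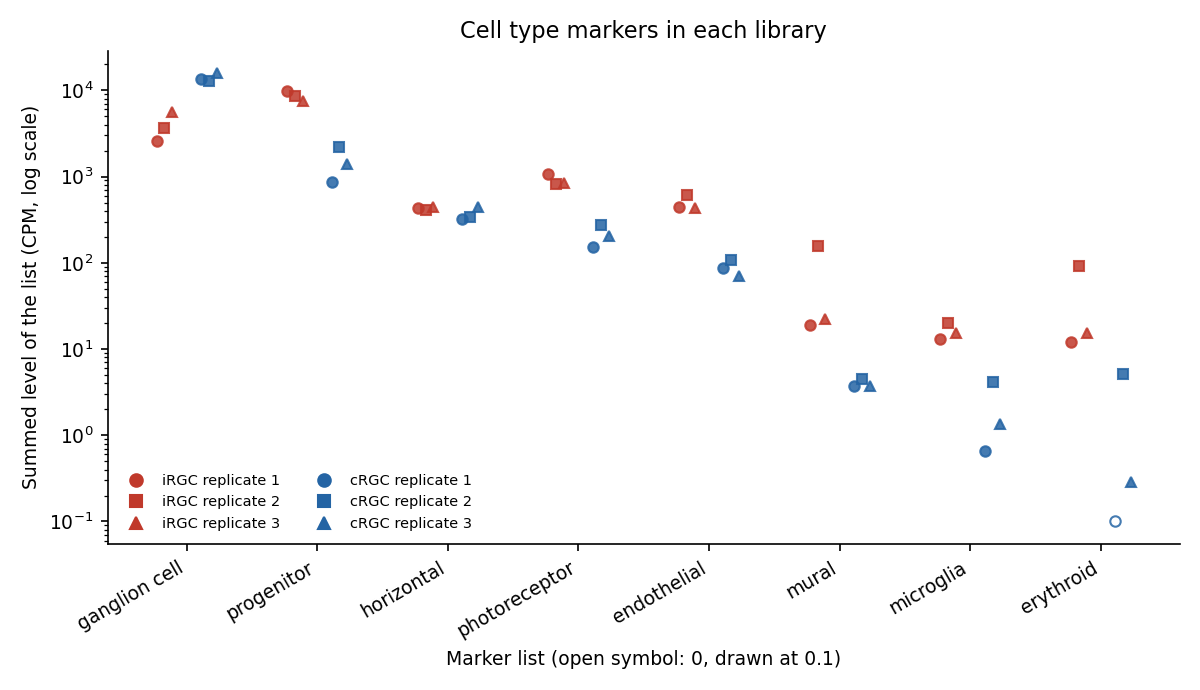
Summed CPM (log axis) of 8 lists of cell type markers in each library, red for iRGCs and blue for cRGCs, with an open symbol for a sum of 0. Ganglion cell marker sums end at 5550 in iRGCs and begin at 12760 in cRGCs, and progenitor marker sums lie the other way round. The endothelial sum is mostly Kdr.

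Each factor was therefore also set against the summed ganglion cell markers of its own library. On that scale Isl1 was 5.34%, 4.83% and 3.14% of the marker sum in iRGCs and 4.70%, 4.17% and 4.48% in cRGCs. Ebf1 was 4.21%, 3.73% and 3.71% against 4.49%, 3.95% and 3.53%, and Ebf3 8.25%, 7.93% and 7.39% against 6.98%, 6.27% and 8.05%. The groups overlapped for all 3, with log2 differences of -0.04 for Isl1, -0.03 for Ebf1 and 0.15 for Ebf3. Pou4f1 (log2 difference -0.36), Isl2 (-0.12) and Pou4f3 (-0.29) also overlapped between the groups. Pou4f2 was 2.91%, 3.62% and 1.77% in iRGCs against 1.40%, 1.54% and 1.85% in cRGCs, so that only iRGC replicate 3 fell among the cRGC libraries (exact permutation p = 0.2). The Pou4f2 ratio also shares the limit of the targeted allele. Without overlap were Dlx2, at 0.848%, 1.03% and 0.332% against 0.0910%, 0.0733% and 0.0729%, Dlx1, at 1.73%, 1.78% and 0.570% against 0.158%, 0.150% and 0.263%, and Ebf2, at 0.250%, 0.237% and 0.106% against 0.0539%, 0.0798% and 0.102%. Dlx2 was 8.43-fold and Dlx1 6.57-fold higher in iRGCs relative to these markers, and Ebf2 2.43-fold. The marker sum averaged 3937 CPM in iRGCs and 14086 CPM in cRGCs, so that a gene of unchanged level also rises on this scale. Ebf2 itself had a log2 fold change of -0.68. The share of all tested genes without overlap on this scale was not computed. Dlx1, Dlx2 and Ebf2 each had an exact permutation p of 0.1, the smallest the design allows, and 0.38 after adjustment, so none of the 19 ratios passed. Without iRGC replicate 1 the log2 difference of Pou4f3 turned from -0.29 to 0.10, and those of the other factors kept their sign, at -0.48 for Pou4f1, 0.67 for Pou4f2, -0.19 for Isl1, -0.31 for Isl2, -0.09 for Ebf1, 1.06 for Ebf2, 0.12 for Ebf3, 2.46 for Dlx1 and 2.90 for Dlx2. The small differences turned without other libraries too, Isl1 to 0.19 without iRGC replicate 3, Ebf1 to 0.05 without cRGC replicate 1, and Isl2 to 0.09, 0.19 and 0.13 without iRGC replicate 3, cRGC replicate 1 or cRGC replicate 2, while Isl2 was at -0.67 without cRGC replicate 3. A ratio to these markers treats the marker sum as a measure of ganglion cell RNA, which was not tested.

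**Figure D5:**
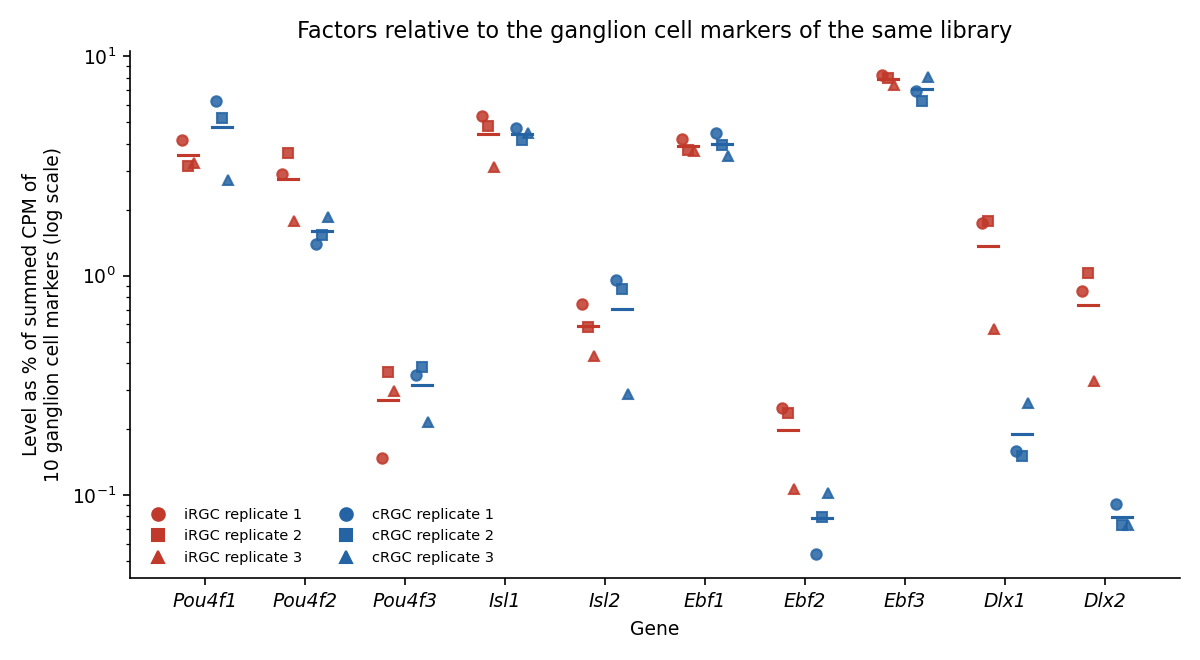
Level of each factor as a percentage (log axis) of the summed CPM of 10 ganglion cell markers in the same library, red for iRGCs, blue for cRGCs, bars at group means. Isl1, Ebf1 and Ebf3 overlap between the groups, and Dlx1, Dlx2 and Ebf2 do not. The marker sum itself is lower in iRGCs.

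Genes known to act upstream of the factors moved in both directions. Atoh7, the proneural gene that makes progenitors competent for the ganglion cell fate, measured 161, 241 and 130 CPM in iRGCs and 37.9, 60.3 and 92.1 CPM in cRGCs. Its libraries did not overlap (log2 fold change 1.48 ± 0.32, SE, adjusted p = 0.00605, edgeR). Neurog2, another proneural gene, rose by 1.99 (adjusted p = 9.91e-04, edgeR), whereas Sox11 (-0.52) and Sox4 (-0.64), which promote ganglion cell differentiation, fell. More than 50% of the exonic bases of Sox4 and Onecut1 are shared with other genes (54.6% and 52.8%). Pax6 (-0.11), Onecut1 (-0.58) and Onecut2 (-0.56) did not pass, and Wt1 had no count in any library. Of the 7 upstream factors tested 2 were higher and 2 lower, with a median of -0.52, and 4 were lower without iRGC replicate 2 or cRGC replicate 1. Without iRGC replicate 1 the counts were the same and the median was -0.54. Without cRGC replicate 3 the counts were also the same, but the median was -0.20. Among all tested genes 23.3% were higher and 23.1% lower in iRGCs.

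All 14 of 14 genes listed as downstream of Pou4f2 and Isl1 were lower in iRGCs, with a median log2 fold change of -1.99. Among all tested genes 23.1% were lower, and the list was chosen with earlier results of these data known. Of the 14, 6 (Rbpms, Sncg, Nefl, Nefm, Stmn2 and Gap43) are also among the ganglion cell markers above, whose median was -1.94. The most abundant of the 14 were the neurofilament genes Nefm (-1.82) and Nefl (-1.99), the growth cone gene Gap43 (-1.92) and the microtubule regulator gene Stmn2 (-1.77). The exons of Nefm and Nefl share 19.2% and 32.8% of their bases with other genes, and those of Shh, named below, share 28.3%. Members that encode regulators and signals were named after their values were seen. Among these the T-box gene Eomes measured 36.1, 82.6 and 113 CPM in iRGCs and 279, 314 and 386 CPM in cRGCs, without overlap, and fell by 2.08 on the log2 scale (adjusted p = 0.00164, edgeR). The Iroquois homeobox genes Irx2 (-1.88), Irx3 (-1.99), Irx4 (-2.37) and Irx6 (-2.33) were lower, as were Shh (-2.15), a signal from ganglion cells to progenitors, and Mstn (-2.12), a TGF-beta family ligand. All 14 were lower again when any of the 6 libraries was left out, with a median of -1.70 without iRGC replicate 1.

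Genes known to be regulated by Dlx factors were split, and 3 of the 4 (Gad1, Gad2 and Slc32a1) are also among the amacrine markers above, of which 8 of 11 were higher in iRGCs. Gad2, which makes GABA, and Slc32a1, which loads it into vesicles, were higher in iRGCs by 0.55 (adjusted p = 0.00719) and 1.46 (adjusted p = 0.0195, edgeR). Gad1 had a log2 fold change of 0.95 and an adjusted p of 0.273 (edgeR), and Ntrk2, the BDNF receptor gene, was lower at -1.59. Of the relatives of the factors, Dlx3 stood at 10.9, 4.20 and 4.76 CPM in iRGCs and at 0.0769, 1.28 and 0.710 CPM in cRGCs, without overlap (log2 fold change 3.25 ± 0.85, SE, adjusted p = 0.0148, edgeR). Ebf4 had a log2 fold change of -0.06 and did not pass. Dlx4 had no count in any library, and Dlx5 and Dlx6 were at 0.371 CPM or less in each.

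The 13 listed cofactors gave 1 higher gene, 6 lower and 6 that did not pass, with a median of -0.23. Among all tested genes 46.4% passed, 23.3% higher and 23.1% lower in iRGCs. Only 3 cofactors were lower without iRGC replicate 2 or cRGC replicate 3, and their median was -0.14 without iRGC replicate 1. Ldb1, the adaptor through which LIM-homeodomain proteins such as Isl1 work, measured 308, 296 and 324 CPM in iRGCs and 278, 278 and 281 CPM in cRGCs and did not pass (log2 fold change 0.15, adjusted p = 0.238, edgeR). Lmo1 (-1.28) and Lmo2 (-1.55), LIM-only proteins that compete for the same adaptor, were lower in iRGCs, and Lmo3 (0.99) and Lmo4 (0.28) did not pass, nor did the adaptor Ldb2 (0.51). Of the single-stranded DNA-binding partners, Ssbp2 was higher (0.49), Ssbp3 lower (-0.33), and Ssbp4 (0.21) did not pass. Zfp521 (-0.52), a zinc-finger protein known to bind Ebf1, was lower, and its relative Zfp423 (-0.23) did not pass. Hipk2 (-0.41), a kinase known to bind Pou4f1, and Rit2 (-1.62), a neuronal GTPase known to bind Pou4f proteins, were lower.

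Last, the genes whose pattern over the 6 libraries was most like that of a factor were named by the root mean square difference of centred log2 CPM, over 10275 genes with a mean of at least 10 CPM. Closest to Pou4f1 were Gpr26 (difference 0.130), Cacnb4 (0.130) and Kcp (0.138). Gpr26 measured 4.95, 5.90 and 10.2 CPM in iRGCs and 49.3, 44.5 and 22.2 CPM in cRGCs, with the low cRGC replicate 3 that Pou4f1 has. Tub (0.083), Pik3cd (0.098) and AW551984 (0.102) were closest to Isl1. Those nearest to Ebf1 were Mmp24 (0.062), Svop (0.066) and Cacnb1 (0.071). For Dlx2 they were Sh2b3 (0.146), Phldb2 (0.146) and Zic1 (0.150), a zinc-finger gene that measured 76.1, 131 and 71.5 CPM in iRGCs and 37.7, 37.8 and 35.8 CPM in cRGCs. With 6 libraries in 2 groups, likeness mostly reflects the difference between the groups and is a description.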

How the data were processed

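Sorted GFP+ cells were profiled by RNA-seq in 6 libraries. The deposited values are raw read counts per gene, which the authors made by aligning reads to mm10 with HISAT2 (2.1.0) and counting with HTSeq (0.11.1) on Ensembl GRCm38 genes. The strand setting is not given in the sources used here, so reads of overlapping antisense genes cannot be told apart. The 13 ATAC-seq samples were not analysed here. Of 47069 listed genes 46488 matched GENCODE M21, which gave symbols, positions and exon lengths. Counts were filtered with filterByExpr, scaled by TMM and tested with edgeR (4.0.16, R 4.3.3) quasi-likelihood, the groups being labels Sert and Brn3b, p-values being adjusted by Benjamini-Hochberg across the 15941 genes tested, with a threshold of 0.1, the false discovery rate (10%) of the study. The biological coefficient of variation was 36.3%. SE is the log2 fold change over the square root of F. Fits were tested on simulated data, and no outcome of that check is reported here. Alternatives used DESeq2 (1.42.0), limma (3.58.1), other filters and left-out libraries. The named genes were the factors, the listed genes and the 3 nearest patterns to Pou4f1, Isl1, Ebf1 and Dlx2. Members and lists were chosen with earlier results of these data known. An item of the amacrine list is not reported here.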

Additional observations from a re-analysis of the deposited data

How the results depend on the processing

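The 7 factors that were lower in iRGCs, and Dlx2, kept their direction and their call in all 14 alternative fits (other scaling, DESeq2 and limma tests, filters on low counts, a replicate block, each library left out, and only iRGC replicate 3 kept of the iRGCs). Of the 2 factors higher in iRGCs, only 1, Dlx2, passed with the replicate block, with an adjusted p under 0.05, and with only iRGC replicate 3 kept of the iRGCs, a setting chosen after seeing the data in which the lone library is assumed to vary like the others. Leaving out each library in turn gave 1 to 2 higher factors. Dlx1 is the factor lost, with an adjusted p between 0.0197 and 0.751 over the alternatives, and the cause was not tested. The replicate block gave 6751 genes past the threshold against 7395. Replicate numbers do not pair the libraries, since deviations of same-numbered libraries correlated at -0.0142, -0.0446 and -0.0669. Over the alternatives 5690 to 7790 genes passed. All 114 ratios recomputed without a library moved by less than the spread between replicates. Leaving out 1 of 3 libraries can hardly move a group mean further, so this says nothing on their stability. Some small ratios turned sign, such as Pou4f3 to ganglion cell markers, from -0.29 to 0.10 on the log2 scale without iRGC replicate 1. Ebf2 had a log2 fold change of -0.68 with an SE of 0.34, and why it did not pass was not tested. Dlx3, at 0.0769 CPM in a cRGC library, rests on few reads there.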
